A study of Mus musculus with 9 samples.

Results

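The subunits of the ionotropic receptors for glutamate, GABA and glycine were taken by gene symbol: the AMPA (Gria), kainate (Grik), NMDA (Grin) and delta (Grid) subunits of the glutamate receptors, the GABA-A subunits (Gabr) and the glycine receptor subunits (Glra and Glrb). The rule found 42 protein-coding genes among the 22092 genes of the count files, of which 18 encode glutamate receptor subunits, 19 GABA-A subunits and 5 glycine receptor subunits. All libraries came from mice of 2 months with the genotype tg:Aldh1L1-L10aGFP (strain Aldh1L1 JD130), in which the Aldh1l1 promoter drives the ribosomal protein L10a fused to GFP in astrocytes. In translating ribosome affinity purification (TRAP), ribosomes that carry the fusion protein are immunoprecipitated with antibodies against GFP and the attached mRNAs are sequenced. Whole astrocyte TRAP (3 libraries) started from a brain each, while endfeet TRAP (6 libraries) started from purified brain vessels pooled from several mice, to which the endfeet, the astrocyte processes that contact vessels, stay attached. Cycloheximide, which blocks translation, was added to the buffers of the vessel preparation. No library of the RNA before immunoprecipitation was analysed here, so that mRNA bound without the tagged ribosomes was not measured.

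Ionotropic receptors are ion channels that open when a transmitter binds, and each is an assembly of several subunits. AMPA, kainate and NMDA receptors are tetramers that pass cations and carry fast excitation, while GABA-A and glycine receptors are pentamers that pass chloride. They are best known from synapses of neurons, but astrocytes also transcribe a number of these genes, among them AMPA subunits, GABA-A subunits and, in Bergmann glia of the cerebellum, Gria1 and Gria4.

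The glutamate receptor subunits share a short stretch of the third membrane segment, which lines the channel, and the stretch was found in the coding sequence of each of the 18 genes. It is shown for the AMPA and NMDA subunits, which hold the glutamate receptor mRNAs that differed between the groups, to set the genes side by side, base by base. Each sequence is the coding strand of the mm10 genome, 21 bases long and within 1 exon, and capitals mark the bases that differ from Gria1.
Gria1: tacacagccaacctggctgcc
Gria2: tacacGgcTaacTtAgctgcc
Gria3: tacacTgcAaacctTgctgcT
Gria4: tacacTgcTaaTctggctgcA
Grin1: tacacTgccaacctggcAgcc
Grin2a: tacacagccaacctggctgcc
Grin2b: tacacTgccaacTtAgcCgcc
Grin2c: tacacGgccaaTctggcAgcc
Grin2d: taTacagccaaTctggctgcc
Grin3a: tacacagcGaacTtggctgcT
Grin3b: tacacagccaacctggcAgcT

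The stretch lies at chr11:57283574-57283594 (plus strand) in Gria1, at chr3:80702572-80702592 (minus strand) in Gria2, at chrX:41620861-41620881 (plus strand) in Gria3 and at chr6:135772247-135772267 (minus strand) in Grin2b. Gria1 and Grin2a are identical over it, while Gria2, Gria3, Gria4 and Grin2b each differ from Gria1 at 4 of the 21 bases. Reads of 50 bases span more than this stretch. Of the 42 representative transcripts, only 6 shared any window of 50 bases with another member: Gria2 with Gria3 (7 windows of 10322 and 5123), Grid1 with Grik3 (12 windows) and Gabrr1 with Gabrr2 (57 windows). Reads that aligned to more than 1 place had been removed by the authors.

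Whole astrocyte libraries held 35984144 to 43521208 gene counts and endfeet libraries 2319495 to 13450588, so that 3 counts, taken as the floor, stood for 0.0689 to 0.0834 CPM (counts relative to the library total) and for 0.223 to 1.29 CPM. The floor describes counting error alone, because the RNA was amplified and reads are not independent molecules. The labelled cell types were checked with marker lists. The 12 astrocyte markers summed to between 25660 and 27560 CPM in whole astrocyte libraries and to between 11620 and 29910 CPM in endfeet libraries. Of the 12, 6 were lower in endfeet TRAP and none was higher with edgeR (1 at an unadjusted p under 0.05, and 1 with DESeq2 and with limma voom). In endfeet TRAP all 10 endothelial and all 9 mural cell markers were higher, with sums of 2689 to 5700 and 2917 to 7928 CPM against 6.95 to 9.02 and 37.1 to 40.2 CPM. A lower share of cells or processes of a type and less RNA in each cannot be told apart in such bulk samples.

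The receptor subunits together made up 1224, 991 and 1151 CPM in whole astrocyte TRAP and from 1161 to 1929 CPM (median 1689) in endfeet TRAP. More than 3 counts were found in every whole astrocyte library for 36 of the 42 members and in every endfeet library for 25. The mean reached 1 CPM for 31 members in whole astrocyte TRAP, for 32 in endfeet TRAP and for 30 in both. Gabra6, the alpha subunit of cerebellar granule neurons, and Gabrr3 had no count in any library. A filter on low counts left 33 members for testing. The 9 that were not tested were Gabra6, Gabre, Gabrp, Gabrr1, Gabrr2, Gabrr3, Glra1, Glra4 and Grin3b.

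The test between the groups was edgeR's quasi-likelihood test over 14427 genes, with p-values adjusted after Benjamini and Hochberg. Of the 33 tested members, 6 were higher in endfeet TRAP (among them Gabrg3, Grin2b, Grin3a, Gria1 and Gria3), 1 was lower (Gabra4) and 26 did not pass. The 6 are 18.2% of the tested members, against 20.7% of all tested genes called higher, a share near the background. The 1 called lower is 3.03% of them, against 13.9% of all genes. The median log2 fold change of the 33 was 0.45, against 0.10 over all tested genes, with 21 values above 0 and 12 below. By class, 4 of 17 glutamate receptor genes were higher and none lower, with a median of 0.80. At an unadjusted p under 0.05, with DESeq2 and with limma voom, 6 were higher and none lower in each case. At an unadjusted p under 0.05, 8 members were higher and 1 lower. Over all 14427 tested genes, 3692 were higher and 2736 lower at an unadjusted p under 0.05. DESeq2 called 3715 of all genes higher and 2356 lower, and limma voom 3931 and 4493. Every endfeet library was above every whole astrocyte library for 4 members (among them Gria1, Grin2b and Gabrg3), a pattern held by 17.7% of all tested genes, and below for 3 (Grik5, Gabra4 and Gabrb1), a pattern held by 25.7%.

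**Figure D1:**
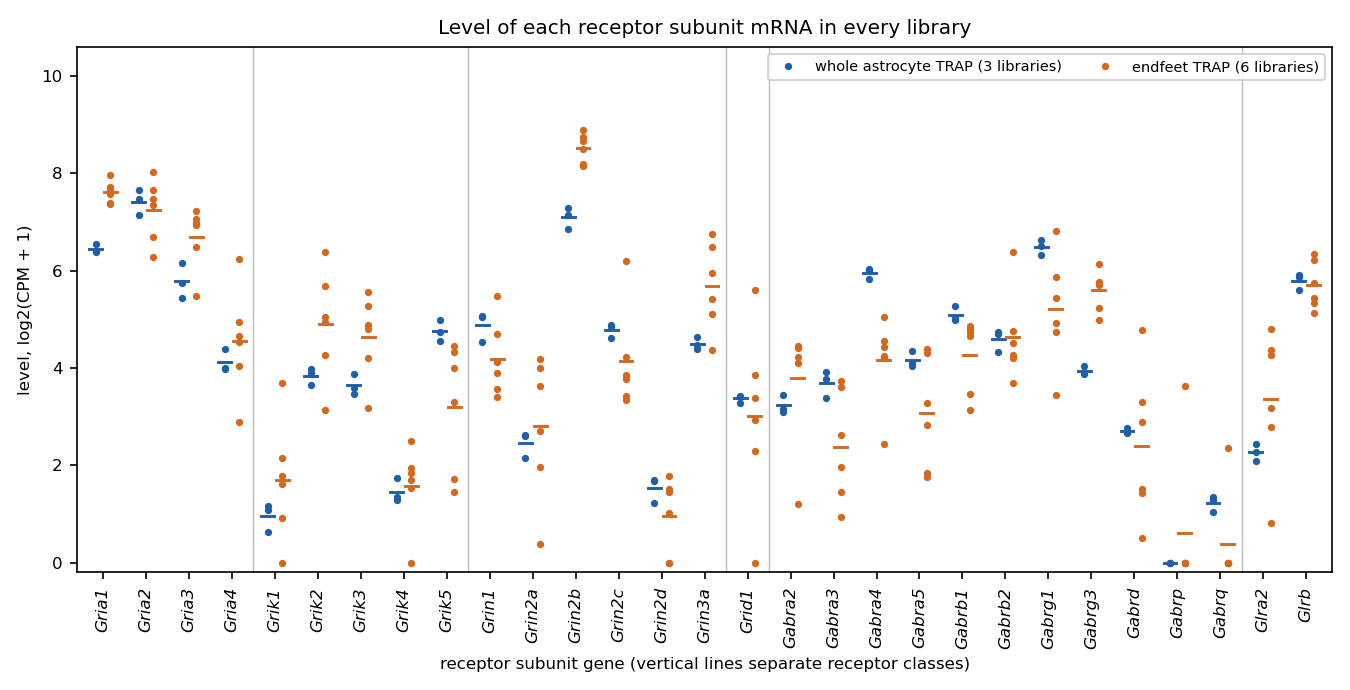
Level of 29 members described in the text, as log2(CPM + 1), in the 3 whole astrocyte libraries (blue) and the 6 endfeet libraries (orange), where each point is a library and each bar the group mean. The whole astrocyte libraries lie close together, the endfeet libraries spread widely, and the points do not overlap for Gria1, Grin2b and Gabrg3 (endfeet above) or for Grik5, Gabra4 and Gabrb1 (endfeet below).

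**Figure D2:**
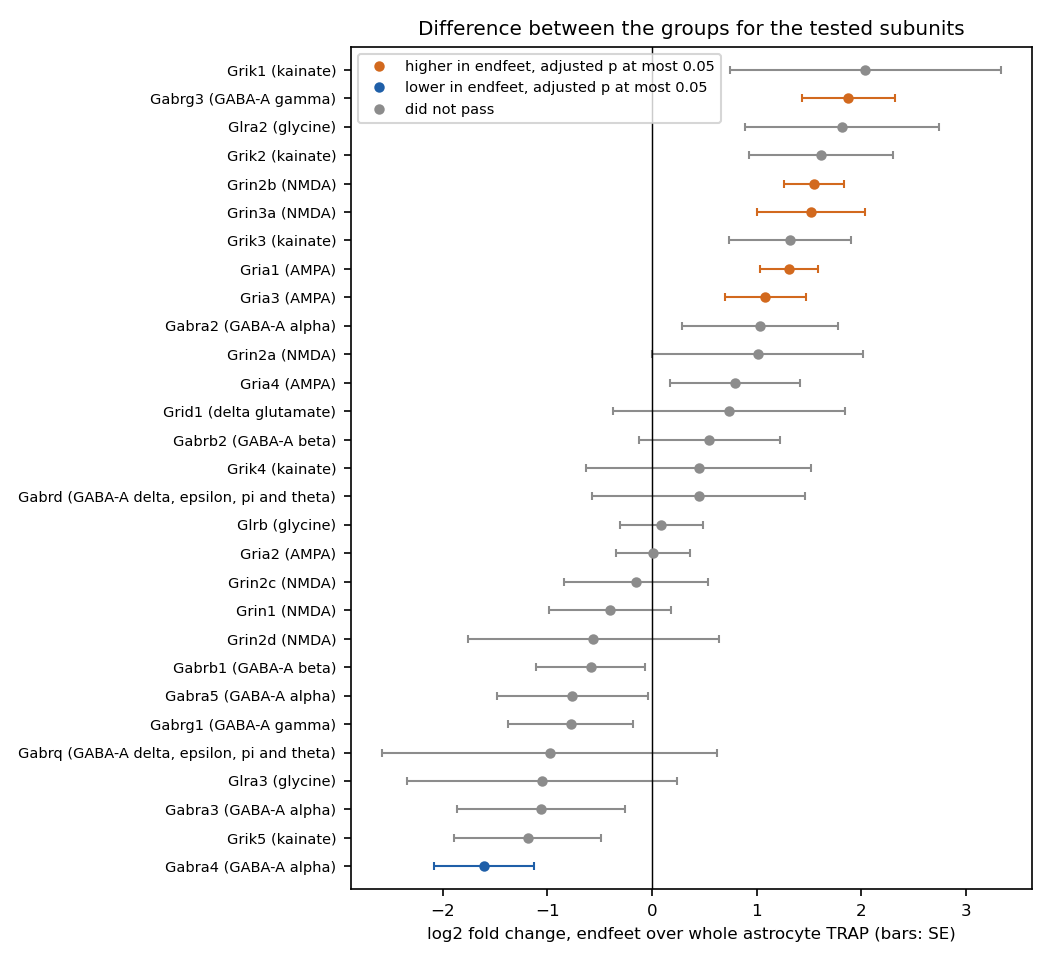
Log2 fold change of endfeet TRAP over whole astrocyte TRAP for 29 of the tested members, ordered by value, with bars of 1 SE and colours for the outcome of edgeR's quasi-likelihood test. The values run from -1.61 (Gabra4) to 2.04 (Grik1), and members with wide bars, such as Grik1 and Glra2, did not pass although their values are as large as those of the members that did.

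AMPA receptors are built from the subunits GluA1 to GluA4, encoded by Gria1 to Gria4, and GluA2 sets whether the channel passes calcium. Of the 4 genes, 2 were higher in endfeet TRAP (Gria1 and Gria3) and 2 did not pass. Gria1 (chromosome 11, 57011387 to 57330244 in mm10) stood at 82.4, 83.3 and 92.8 CPM in whole astrocyte TRAP and at 165 to 251 CPM (median 198) in endfeet TRAP. No endfeet library fell into the range of the whole astrocyte libraries, and the log2 fold change was 1.31 (SE 0.278, adjusted p = 0.00281). Gria1 passed in all 17 other fits, with log2 fold changes from 1.11 to 1.43.

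Gria3 (chromosome X, 41400854 to 41678601) had 70.5, 42.6 and 52.6 CPM in whole astrocyte TRAP and 44.0 to 149.9 CPM (median 123.5) in endfeet TRAP. In 5 of the 6 endfeet libraries it was above all whole astrocyte libraries, and the lowest endfeet library lay within their range. Its representative transcript is annotated as a target of nonsense-mediated decay, and the protein-coding transcript of 5192 bases, fitted as a feature of its own, gave nearly the same value (1.19, SE 0.394, adjusted p = 0.0399). The gene's log2 fold change of 1.08 (SE 0.389, adjusted p = 0.0458) was just past the threshold and passed in only 5 of the 17 other fits, which included neither the fit without whole astrocyte library 1 (adjusted p = 0.067), 2 (0.197) or 3 (0.157) nor that without endfeet library 1 (0.0596), 2 (0.0604), 3 (0.0816), 4 (0.113) or 5 (0.0738).

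Gria2, by contrast, had 201, 139.8 and 176 CPM in whole astrocyte TRAP and 77.2 to 261 CPM (median 169) in endfeet TRAP. The endfeet libraries lay on both sides of the whole astrocyte libraries, with 2 above and 2 below, and the log2 fold change was 0.01 (SE 0.352, 95% interval -0.68 to 0.70). Gria4, which with Gria1 is known from Bergmann glia, had 20.01, 15.1 and 14.8 CPM against 6.45 to 74.4 CPM (median 23.2), a log2 fold change of 0.80 (SE 0.621) that did not pass.

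Levels of different genes were compared per kilobase of transcript. In whole astrocyte TRAP Gria1 held 34.2% ± 4.81 (SD, n = 3) of the AMPA subunit mRNA and Gria2 36.0% ± 1.77. In endfeet TRAP Gria1 held 47.1% ± 11.1 (SD, n = 6) and Gria2 19.5% ± 4.97. The share of Gria2 was at most 25.6% in any endfeet library and at least 34.1% in any whole astrocyte library, while the share of Gria1 overlapped between the groups (28.8 to 38.0% and 30.8 to 64.3%). The share of Gria2 depends on the length it is divided by: its counts lay almost entirely (96.1 to 100%) on a transcript of 4026 bases, shorter than the representative transcript of 10371 bases. With each gene divided by the length of the shortest transcript that held 95% of its counts, Gria2 held 58.7% ± 1.92 (whole astrocyte) and 37.6% ± 7.61 (endfeet), again without overlap (56.65 to 60.4% and 27.3 to 46.6%), and Gria1 22.4% ± 3.47 and 37.3% ± 10.7. The longer transcript adds bases that held almost none of the Gria2 counts, so that division by its length lowers the share of Gria2. Over the shorter length Gria2 was above Gria1 in whole astrocyte libraries (Gria1 18.6 to 25.3%). In endfeet libraries the ranges of Gria1 (22.5 to 54.2%) and Gria2 overlapped, so their order there is not fixed by these values.

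NMDA receptors pair the obligatory subunit GluN1 (Grin1) with GluN2 (Grin2a to Grin2d) or GluN3 (Grin3a, Grin3b) subunits. Their summed level was 242, 188 and 234 CPM in whole astrocyte TRAP and 403 to 554 CPM (median 499.5) in endfeet TRAP, without overlap. Most counts of the sum fell on Grin2b, which has the longest transcript of the family. Of the 6 tested NMDA genes, 2 were higher (Grin2b and Grin3a), and Grin1 and the other GluN2 subunits did not pass.

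Grin2b (chromosome 6, 135713233 to 136173511) stood at 155, 116 and 142 CPM in whole astrocyte TRAP and at 285 to 474 CPM (median 382) in endfeet TRAP. All 6 endfeet libraries were above all 3 whole astrocyte libraries. The log2 fold change was 1.55 (SE 0.287, adjusted p = 0.00108), and the call was made in all 17 other fits. Grin3a (chromosome 4, 49661611 to 49845744) had 19.9, 21.2 and 23.7 CPM against 19.8 to 107 CPM (median 51.5). In 5 endfeet libraries it was above the whole astrocyte range and in 1 just below it, and the log2 fold change of 1.52 (SE 0.517, adjusted p = 0.0369) passed in 9 of the 17 other fits. The call of Grin3a was lost without whole astrocyte library 1 (adjusted p = 0.123), 2 (0.129) or 3 (0.109), without endfeet library 3 (0.0562), 4 (0.0975) or 5 (0.0933) and with the replicate number as a block (0.071).

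Grin1 had 32.3, 22.1 and 32.8 CPM in whole astrocyte TRAP and 9.67 to 43.5 CPM (median 15.2) in endfeet TRAP. Its log2 fold change was -0.41 (SE 0.583, adjusted p = 0.622). It was below the whole astrocyte range in 4 endfeet libraries and above it in 1. An annotated antisense gene, Grin1os, overlaps 1307 of the 4276 bases of its transcript, and whether reads were counted by strand is not given in the sources used here. Grin2c, the GluN2 subunit of astrocytes and cerebellar granule neurons, had 28.5, 23.7 and 27.9 CPM against 9.22 to 72.4 CPM (median 13.2), with 5 endfeet libraries below the whole astrocyte range and 1 far above it. Its log2 fold change was -0.15 (SE 0.687), and -1.01 without endfeet library 6. Grin2a had 5.11, 3.47 and 5.17 CPM against 0.297 to 17.2 CPM, and Grin2d was near the floor of the endfeet libraries, with 1.33, 2.19 and 2.25 CPM against 0 to 2.46 CPM. Neither passed.

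Per kilobase, Grin1 made up 30.4% ± 2.52 (SD, n = 3) of the NMDA subunit mRNA in whole astrocyte TRAP and 13.2% ± 8.11 (SD, n = 6) in endfeet TRAP, while Grin2b made up 25.7% ± 1.25 and 44.8% ± 8.62. The lowest endfeet share of Grin2b, 32.8%, was above the highest whole astrocyte share, 27.0%. Shares of Grin1 overlapped in 1 endfeet library (28.1%). In 5 of the 6 endfeet libraries the mRNA of the obligatory subunit was at most 16.9% of the family, against at least 27.5% in whole astrocyte libraries. A share also depends on the other subunits, and the level of Grin1 itself did not pass with edgeR (log2 fold change -0.41, adjusted p = 0.622).

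**Figure D3:**
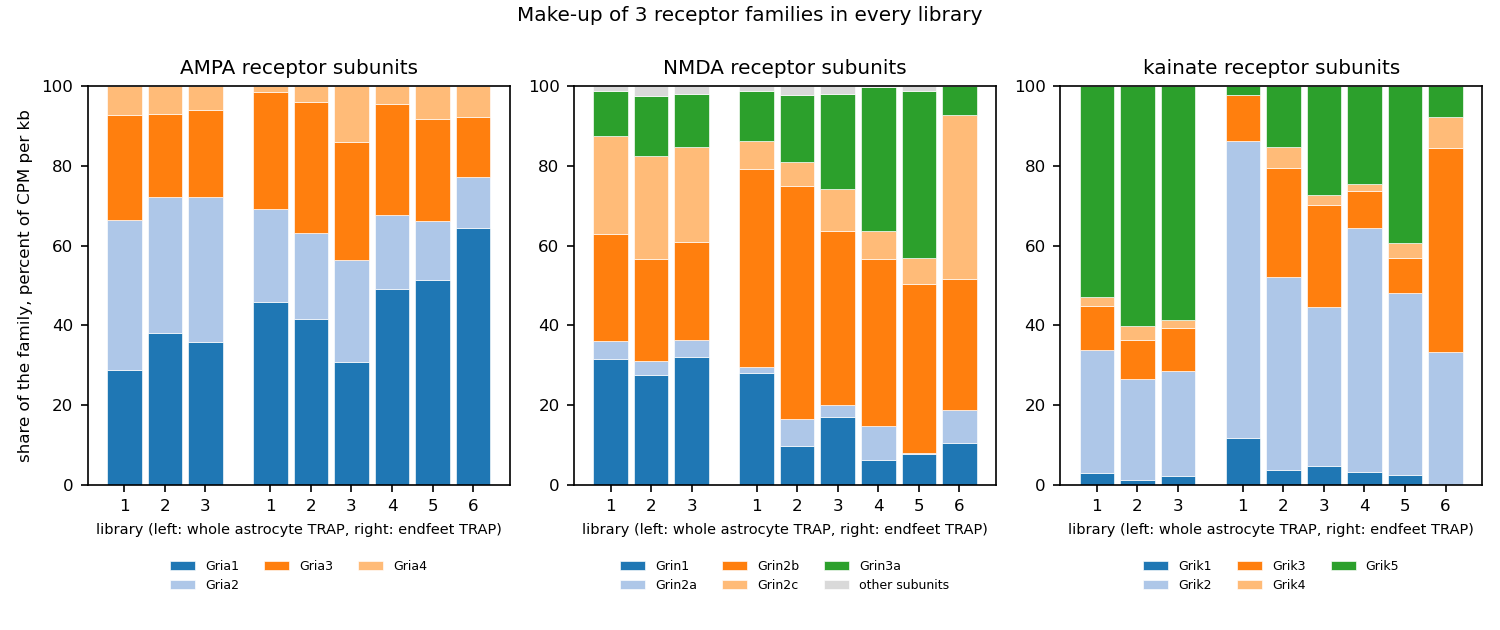
Share of each subunit in the AMPA, NMDA and kainate receptor mRNA of every library, in percent of CPM per kilobase of the representative transcript; subunits that never reach 5% are summed as other subunits. The Gria2 share is 34.1 to 37.6% in whole astrocyte libraries and 12.99 to 25.6% in endfeet libraries, the Grin2b share 24.6 to 27.0% and 32.8 to 58.5%, and the Grik2 share 25.2 to 30.9% and 33.4 to 74.5%.

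The position of the counts along Grin2b was examined because its representative transcript of 24060 bases has 4446 coding bases and a 3′ UTR of 18868 bases. A shorter annotated transcript of 7484 bases covers the first 31.0% of it. In whole astrocyte TRAP this shorter transcript held 15.9, 14.5 and 14.6% of the counts of the gene, and in endfeet TRAP 6.43 to 13.4%. Every endfeet library was below every whole astrocyte library, and most counts of the gene in all libraries came from the distal 3′ UTR. Tested as a feature of its own, the shorter transcript differed by 0.96 on the log2 scale (SE 0.484, adjusted p = 0.165) and did not pass, so that the call of Grin2b, although not its direction, came with the reads of the distal 3′ UTR. Across 3112 genes with a transcript that covers only the first part of the representative one, the median share of counts on it was 12.5 to 13.4% in whole astrocyte TRAP and 4.61 to 10.7% in endfeet TRAP. On transcripts of the last part, over 709 genes, it was 35.7 to 37.7% and 29.7 to 36.5%. The counts of Grin2b thus lay further towards the 3′ end in endfeet libraries, where the first parts of genes held smaller shares in general, and the part of this in the result was not tested.

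**Figure D4:**
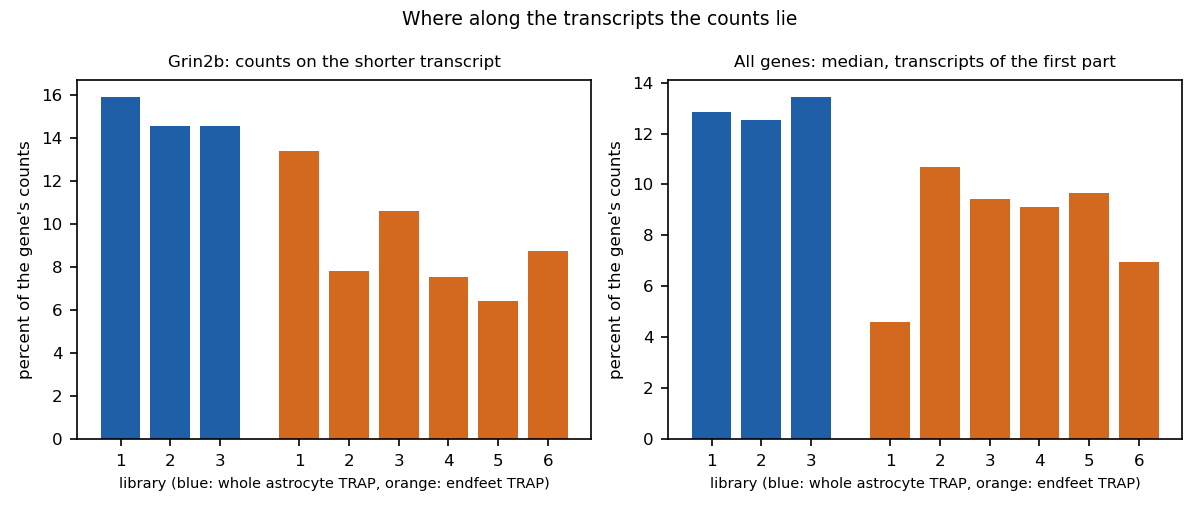
Percentage of the counts of Grin2b that fell on its transcript of 7484 bases (left) and median percentage of a gene's counts on transcripts of the first part, over 3112 genes (right), in each whole astrocyte (blue) and endfeet (orange) library. In both panels every endfeet bar is below every whole astrocyte bar: 6.43 to 13.4% against 14.5 to 15.9% for Grin2b, and 4.61 to 10.7% against 12.5 to 13.4% over all genes.

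The 3′ UTR was also longer than the coding sequence in Gabrg3 (7951 and 1401 bases), Gria3 (2589 and 2454) and Grin3a (3618 and 3345), while Gria1 had 2601 and 2721. It was longer as well in Gabra4, which was lower (1953 and 1656), and in Gabrb1 (12231 and 1422), Gria2 (7271 and 2649) and Gabrg1 (2978 and 1395), which did not pass. The lengths of Gria3 are those of its representative transcript, a target of nonsense-mediated decay, and may not hold for its protein-coding transcripts. Of the Gria1 transcripts, those of 5361, 5399 and 5546 bases rose by 1.41, 1.39 and 1.41 on the log2 scale and passed. For Gabrg3, a transcript of 1724 bases that shares the first exons had a mean of 34 counts in whole astrocyte TRAP and of 4.33 in endfeet TRAP (log2 fold change -0.44, SE 1.25, adjusted p = 0.824), against 555 and 479 for the representative transcript. Across genes, Spearman's rho between transcript length and log2 fold change was 0.177 over the 33 members and 0.289 over all 14427 tested genes, where genes are not independent replicates.

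Kainate receptors combine GluK1 to GluK3 (Grik1 to Grik3) with GluK4 and GluK5 (Grik4, Grik5), which do not form channels alone. None of the 5 genes passed in either direction with edgeR, while 2 had an unadjusted p under 0.05, and 2 passed with DESeq2 and with limma voom (Grik2 and Grik3, higher in endfeet TRAP). Grik2 had 13.9, 11.5 and 14.8 CPM in whole astrocyte TRAP and 7.76 to 82.2 CPM (median 30.9) in endfeet TRAP, with 5 endfeet libraries above the whole astrocyte range (log2 fold change 1.62, SE 0.693, adjusted p = 0.0878). Grik3 had 11.0, 10.1 and 13.6 CPM against 8.03 to 46.5 CPM (median 27.6), with 5 above (1.32, SE 0.586, adjusted p = 0.0983). The adjusted p of the pair was 0.029 and 0.0291 with DESeq2 and 0.00752 and 0.0381 with limma voom, within ranges of 0.00752 to 0.313 and 0.0291 to 0.47 over 17 other fits. Without endfeet library 6 the call of Grik2 was made by edgeR as well (adjusted p = 0.0249).

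Grik5 went the other way, with 22.5, 25.9 and 30.9 CPM in whole astrocyte TRAP and 1.73 to 20.8 CPM (median 11.9) in endfeet TRAP. All 6 endfeet libraries were below all 3 whole astrocyte libraries, but the spread among them was wide and the log2 fold change of -1.19 (SE 0.702, adjusted p = 0.21) did not pass. Grik1 and Grik4 were low, at 0.555 to 1.25 and 1.45 to 2.33 CPM in whole astrocyte TRAP and at 0 to 11.98 and 0 to 4.62 CPM in endfeet TRAP. Per kilobase, Grik5 was the leading kainate subunit mRNA in all whole astrocyte libraries, with 57.3% ± 3.79 (SD, n = 3), and Grik2 held 27.5% ± 3.02. In endfeet TRAP Grik2 held 50.5% ± 14.99 (SD, n = 6) and Grik5 19.5% ± 13.7, and neither share overlapped between the groups (Grik2 33.4 to 74.5% against 25.2 to 30.9%).

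Grid1, a delta receptor subunit that organises synapses through cerebellins, varied widely among the endfeet libraries. It had 9.67, 8.69 and 9.81 CPM in whole astrocyte TRAP and 0 to 47.8 CPM (median 8.05) in endfeet TRAP. It was high in endfeet library 1 and did not pass, and its log2 fold change of 0.74 turned to -0.47 without that library.

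GABA-A receptors are most often made of alpha and beta subunits together with a gamma or a delta subunit. The 13 tested GABA-A genes had a median log2 fold change of -0.07, and Gabrg3 was among those called higher in endfeet TRAP, while Gabra4 was the 1 called lower. The summed level of the family was 473, 392 and 444 CPM in whole astrocyte TRAP and 249.6 to 610 CPM (median 534) in endfeet TRAP, which overlapped.

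Among the beta subunits, which hold part of the GABA binding site, Gabrb1 had 31.7, 30.7 and 37.8 CPM in whole astrocyte TRAP and 7.76 to 28.0 CPM (median 25.1) in endfeet TRAP, with all endfeet libraries below, but its log2 fold change of -0.59 (SE 0.522, adjusted p = 0.409) did not pass. Gabrb2 had 25.0, 19.0 and 25.9 CPM against 11.95 to 82.5 CPM (median 20.2) and did not pass.

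Among the gamma subunits, which link the receptor to its anchor at the synapse, Gabrg3 (chromosome 7, 56716465 to 57387188) had 15.4, 13.6 and 14.2 CPM in whole astrocyte TRAP and 30.9 to 69.4 CPM (median 52.0) in endfeet TRAP. Its log2 fold change of 1.88 (SE 0.442, adjusted p = 0.00527) was the largest among the members that passed, and it passed in all 17 other fits. Gabrg1, a subunit found in astrocytes including Bergmann glia, had 98.4, 79.3 and 89.9 CPM against 9.92 to 113 CPM (median 35.8). It was below the whole astrocyte range in 5 endfeet libraries and above it in library 1. Its log2 fold change was -0.78 (SE 0.598, adjusted p = 0.334) and -1.39 (adjusted p = 0.0299) without that library, in a range of adjusted p from 0.0138 to 0.549 over 17 other fits.

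The alpha subunits include the only member that was lower. Gabra4 (chromosome 5, 71569749 to 71658308) had 64.6, 56.1 and 62.6 CPM in whole astrocyte TRAP and 4.45 to 32.3 CPM (median 19.3) in endfeet TRAP. The groups did not overlap, and the log2 fold change was -1.61 (SE 0.476, adjusted p = 0.0193). The call was lost when whole astrocyte library 1 (adjusted p = 0.0951), 2 (0.0631) or 3 (0.0764) was left out, with log2 fold changes from -1.68 to -1.52, and was made in the other 14 fits. The transcript overlaps that of Gabrb1 on the other strand by 46 of 4108 bases.

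Gabra2, another alpha subunit, had 9.89, 7.60 and 7.93 CPM against 1.29 to 20.9 CPM (median 19.1), with 5 endfeet libraries above the whole astrocyte range and library 6 below it. Its log2 fold change of 1.04 (SE 0.746, adjusted p = 0.304) passed only without endfeet library 6 (1.28, adjusted p = 0.0473; 0.0473 to 0.608 over 16 other fits). The only transcript counted for Gabra2 is annotated as a target of nonsense-mediated decay, with 228 of its 2245 bases coding, so these levels may not be those of its coding mRNA. Gabra3 had 14.1, 9.46 and 12.8 CPM against 0.921 to 12.3 CPM, and Gabra5, an extrasynaptic subunit, 19.4, 16.2 and 15.4 CPM against 2.37 to 19.99 CPM. Neither passed.

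Of the remaining GABA-A subunits, Gabrd, an extrasynaptic subunit, had 5.78, 5.33 and 5.42 CPM in whole astrocyte TRAP and 0.431 to 26.4 CPM (median 4.16) in endfeet TRAP. Gabrq had 1.45, 1.55 and 1.06 CPM in whole astrocyte TRAP, 4.13 CPM in endfeet library 3 and no count in the 5 other endfeet libraries. Neither of them passed. Gabrq was called lower by edgeR without endfeet library 3 (adjusted p = 0.00737) and over endfeet libraries 4 to 6 (0.00759), in a range of 0.00737 to 0.791 over 15 other fits. All endfeet libraries of these fits were without a count, so that no fold is given, and their floor was up to 1.29 CPM. Gabrp was counted in endfeet library 3 alone, at 11.4 CPM. Gabre, Gabrr1 and Gabrr2 (and, among the NMDA subunits, Grin3b) stayed below a mean of 1 CPM in both groups.

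Many GABA-A subunit genes lie side by side, which the rule did not use. In the cluster on chromosome 5 (70751047 to 72149037), Gabra4 was lower, Gabrg1 and Gabrb1 had values below 0 and Gabra2 a value above 0, none of which passed, with a median of -0.68. With limma voom Gabrg1 was lower as well (-1.13, adjusted p = 0.0138). On chromosome X neither tested gene (Gabra3 and Gabrq) passed with edgeR over all libraries or at an unadjusted p under 0.05. Gabra3 did not pass with DESeq2, which gave Gabrq no adjusted p, and Gabrq was lower with limma voom.

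Per kilobase, Gabrg1 held 19.8% ± 0.239 (SD, n = 3) of the GABA-A subunit mRNA in whole astrocyte TRAP and Gabra4 15.8% ± 0.455. In endfeet TRAP Gabrg1 held 9.13% ± 5.52 (SD, n = 6) and Gabra4 5.35% ± 2.90. The shares of Gabra4 (0.888 to 9.33%) and Gabrg3 (3.97 to 7.94% against 1.54 to 1.64%) did not overlap between the groups. For Gabrg1, the share of endfeet library 1 (19.3%) came close to the whole astrocyte range of 19.6 to 20.1%.

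Of the glycine receptor subunits, the beta subunit Glrb, which binds the anchor gephyrin, had 59.1, 57.5 and 47.9 CPM in whole astrocyte TRAP and 34.1 to 80.7 CPM (median 47.7) in endfeet TRAP, with a log2 fold change of 0.09 (SE 0.395, 95% interval -0.68 to 0.86). Glra2, the alpha subunit of the immature brain, had 4.39, 3.27 and 3.84 CPM against 0.768 to 26.7 CPM (median 13.2), with 5 endfeet libraries above and library 1 below. Its log2 fold change of 1.82 (SE 0.927, adjusted p = 0.147) passed without that library (2.03, adjusted p = 0.0263) and over endfeet libraries 4 to 6 (2.10, adjusted p = 0.0452), in a range of 0.0263 to 0.673 over 16 other fits. Glra1, Glra3 and Glra4 stayed below a mean of 1 CPM in both groups. None of the 3 tested glycine receptor genes passed with edgeR, with DESeq2 or with limma voom, or at an unadjusted p under 0.05. Glrb held 92.3% ± 1.25 (SD, n = 3) of the family per kilobase in whole astrocyte TRAP and 78.8% ± 14.5 (SD, n = 6) in endfeet TRAP.

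Among the highest levels per kilobase in whole astrocyte TRAP were those of Gabrg1 (18.7 ± 2.00 CPM per kb, SD, n = 3), Glrb (18.1 ± 2.00), Gria2 (16.6 ± 2.97), Gria1 (15.5 ± 1.04) and Gabra4 (14.9 ± 1.09). Neighbours among these differed by less than the larger SD of the pair. In endfeet TRAP the level was 35.7 ± 5.72 (SD, n = 6) for Gria1, above Gria3 (21.3 ± 7.39), Glrb (17.8 ± 6.31), Gria2 (15.8 ± 6.43) and Grin2b (15.6 ± 3.15), of which each lay within the spread of the next. The place of Gria2 rests on the length of its representative transcript. Over the 4026 bases that held its counts it had 42.8 ± 7.66 CPM per kb in whole astrocyte TRAP, above the other genes listed, and 40.6 ± 16.6 in endfeet TRAP, where it lay above Gria1 by less than its SD.

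Genes that act with the receptors were read from lists. Counts for these and for the marker lists stand beside those over all 14427 tested genes. Of all genes, edgeR called 20.7% higher and 13.9% lower. DESeq2 called 3715 genes higher and 2356 lower, limma voom 3931 and 4493, and 3692 and 2736 had an unadjusted p under 0.05. Of 25 auxiliary subunits and partners of glutamate receptors, none was higher with edgeR (1 at an unadjusted p under 0.05, 1 with DESeq2 and 1 with limma voom) and 1 was lower, the cerebellin Cbln1 (log2 fold change -3.96, SE 1.19, adjusted p = 0.0209), with a median of -0.54. Of the same list 2 were lower at an unadjusted p under 0.05, 3 with DESeq2 and 8 with limma voom. For the 7 partners of GABA-A and glycine receptors, the trafficking proteins Gabarap (-1.78, SE 0.233) and Gabarapl1 (-1.77, SE 0.242) were lower and the other 5 did not pass, with a median of 0.23 over the list. At an unadjusted p under 0.05, with DESeq2 and with limma voom, 2 of the list were higher and 3 lower in each case. Shisa7 and Clptm1 had values of 1.43 (adjusted p = 0.063 with edgeR) and 1.20 (0.0519). Of 21 anchoring proteins 5 were lower, among them Dlg4, the PSD-95 scaffold of glutamate synapses, at 116, 118 and 155 CPM against 1.07 to 28.3 CPM (-2.75, SE 0.637), and Gphn, the gephyrin that anchors glycine and GABA-A receptors (-1.68, SE 0.602). Dlgap1 and Nsf were also lower, by -1.57 and -0.98, and the scaffold Shank2 was the 1 that was higher (1.68, SE 0.458). DESeq2 called 3 anchoring genes higher and 6 lower, and limma voom 3 and 8.

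Of 13 tested genes that supply or clear the transmitters, 3 were lower: Glul, the glutamine synthetase of astrocytes (-3.26, SE 0.302), Abat, which breaks down GABA (-1.40, SE 0.301), and Srr, which makes the NMDA receptor co-agonist D-serine (-1.16, SE 0.301). The GABA transporter Slc6a13 (4.15, SE 0.479) and the glutamate transporter Slc1a1 (3.23, SE 0.598) were higher. The astrocyte glutamate transporters Slc1a2 (0.93, SE 0.387, adjusted p = 0.08) and Slc1a3 (0.27, SE 0.366) did not pass. DESeq2 called 3 of the 13 higher and 5 lower, and limma voom 4 and 5.

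**Figure D5:**
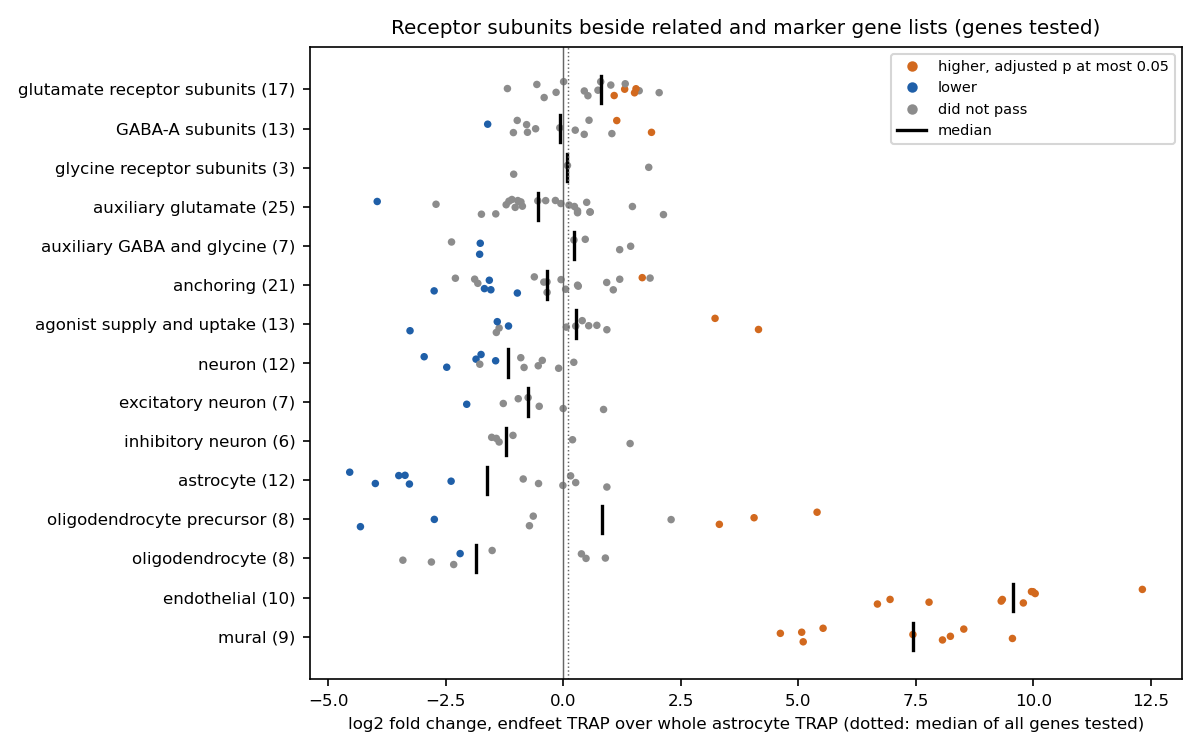
Log2 fold change of endfeet TRAP over whole astrocyte TRAP for the tested receptor subunits by class and for lists of related and of cell type marker genes; each point is a gene, black bars are medians and the dotted line is the median of all tested genes, 0.10. The glutamate receptor subunits have a median of 0.80, the neuronal markers of -1.17 and the endothelial and mural markers of 9.57 and 7.44.

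Neurons transcribe many of these receptors, and their markers were therefore set beside them. Of 12 neuronal markers, 5 were lower in endfeet TRAP, none was higher (also at an unadjusted p under 0.05, with DESeq2 and with limma voom) and the median log2 fold change was -1.17. The markers summed to between 4537 and 5115 CPM in whole astrocyte TRAP and to between 1211 and 2172 CPM in endfeet TRAP, without overlap and without any library near 0. The 7 excitatory neuron markers had a median of -0.75 (1 lower) and the 6 tested inhibitory ones of -1.22 (none called with edgeR, 2 lower at an unadjusted p under 0.05 and with DESeq2, 3 with limma voom). The 7 cerebellar granule neuron markers had a median of 0.94 over the 5 tested and summed to 113 to 139 CPM and to 71.4 to 244 CPM. This median is the value of Neurod1, which did not pass and stood at 15.97 CPM in endfeet library 1, against 0 to 3.64 CPM in the others. Fat2 (0 to 0.023 CPM against 0.71 to 13.4 CPM) and Zic1 (log2 fold change 1.27) were higher, while Etv1 (-1.37) and Calb2 (-1.67) did not pass. None was lower with edgeR, 1 at an unadjusted p under 0.05 and with DESeq2, and 2 with limma voom. Gabra6, the alpha subunit of these neurons, had no count in any library. Values were below 0 for 11 neuronal, 6 excitatory and 4 inhibitory markers. They were above 0 for 1 neuronal (Stmn2, 0.22), 1 excitatory (Slc17a7, 0.86) and 2 inhibitory markers (Slc32a1, 0.20, and Lhx6, 1.42), none of which passed. The part of neurons in the results of the receptor subunits was not tested.

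Other lists moved as well. The 7 markers of Bergmann glia, which are astrocytes of the cerebellum, summed to 14330 to 14590 CPM in whole astrocyte TRAP and to 476 to 935 CPM in endfeet TRAP. Most of the sum was Fam107a (13260 to 13560 CPM and 345 to 770 CPM). Of the 7, 5 were lower (median -3.27), while Gdf10 (-0.10, SE 0.811) and Sept4 (-0.44, SE 0.413) did not pass. Of 8 markers of oligodendrocyte precursor cells, which also carry AMPA and NMDA receptors, 3 were higher and 2 lower (median 0.83), with sums of 466 to 489 and 197 to 453 CPM. The higher ones were Pdgfra (4.06), Cspg4 (5.40) and C1ql1 (3.32), and the lower ones Olig1 (-2.74) and Olig2 (-4.31), so that the list had no common direction. The vascular, fibroblast and microglial lists were higher, as given for the vascular ones above, with 5 of 6 fibroblast and 6 of 9 microglial markers called. The part of these cell types in the results of the receptor subunits was not tested.

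The deposited libraries carry numbers by which endfeet libraries 1 to 3 stand apart from endfeet libraries 4 to 6 and the whole astrocyte libraries. Over endfeet libraries 4 to 6 against the 3 whole astrocyte libraries, the log2 fold changes were 1.29 for Gria1 (SE 0.211, adjusted p = 0.00332), 1.22 for Grin2b (SE 0.232, adjusted p = 0.0059), 1.69 for Grin3a (SE 0.564, adjusted p = 0.0483), 1.67 for Gabrg3 (SE 0.331, adjusted p = 0.00694) and -1.36 for Gabra4 (SE 0.325, adjusted p = 0.0144). Gria3 did not pass over these libraries (0.64, SE 0.42, adjusted p = 0.264). The meaning of the numbers is not given in the sources used here, and no whole astrocyte library has a number like those of endfeet libraries 1 to 3, so that no value can be given within that set.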

How the data were processed

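Ribosome-bound RNA of Aldh1l1:L10a-eGFP mice was sequenced in 3 whole astrocyte and 6 endfeet TRAP libraries. The authors amplified the RNA with the NuGEN Ovation kit, aligned reads of 50 bases to mm10 with Bowtie in the Eoulsan pipeline, removed reads aligned more than once and deposited raw counts per Ensembl 75 transcript (HTSeq-count 0.5.3, bcl2fastq 1.8.4 per the labels), neither normalized nor pooled. Whether counting used strand is not given in the sources used here.

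Of 75466 transcripts, 73164 were matched to GENCODE M21, and the transcript with the most CPM over all libraries stood for its gene, since transcripts of a gene repeat the same reads. Levels per kb use the exon length of that transcript. Gene totals of 2319495 to 43521208 counts set floors of 3 counts. Groups were compared with edgeR 4.0.16 in R 4.3.3 (TMM, filterByExpr, glmQLFit, glmQLFTest, Benjamini-Hochberg adjustment, threshold 0.05). The SE was taken as the size of the log2 fold change over the root of F. Nothing in the labels states separate animals, so p-values measure the spread between these samples. Members past the threshold or with a mean of at least 1 CPM in either group were named with values, apart from a few genes that are not reported here. Members, families and lists were chosen with earlier results of these data known, and lists are described without a set test.

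The alternatives were DESeq2 1.42.0, limma 3.58.1 (voom, weighted by group), DESeq2 size factors, other filters, summed transcripts, the replicate number as a block, endfeet libraries 4 to 6 only, a minimum fold and each library left out. Single transcripts as features and the length of the shortest transcript with 95% of the counts were added after the data were seen. The tests were tested on simulated data over 14427 genes for the same comparison, with the unequal dispersion of the groups (0.014 and 0.705). There edgeR called 1.03% of log2 changes of 2 and 71.7% of those of 4, DESeq2 27% and 98%, and voom 38% and 98%. Tables were made with Python 3.11.15, numpy 2.4.6 and pandas 2.3.3.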

Additional observations from a re-analysis of the deposited data

Results flagged for a closer look

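In the 6 endfeet libraries, 9 of 29 members had 1 library that stood apart from the other libraries of the group by Dixon's test on CPM. The test flags about 1 of 20 groups by chance where values are normally distributed. For skewed counts, or for members without a count in the other endfeet libraries (Gabrp and Gabrq), the rate by chance was not determined. The share of all genes that the same rule flags was not determined either, so the number is not shown to be particular to these members. The libraries concerned were library 3 (4 members), library 1 (3 members) and library 6 (2 members), and library 6 had the fewest counts.

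In library 3, Gria4 was at 74.4 CPM (990 counts; 6.45 to 30.04 CPM in the other endfeet libraries), Gabrd at 26.4 CPM (0.431 to 8.85), Gabrp at 11.4 CPM (152 counts; no count elsewhere) and Gabrq at 4.13 CPM (55 counts; no count in the other endfeet libraries). In library 1, Gabrb2 was at 82.5 CPM (11.95 to 26.3 in the others), Grid1 at 47.8 CPM (0 to 13.6) and Grik1 at 11.98 CPM (78 counts; 0 to 3.46). In library 6, Grin2c was at 72.4 CPM (168 counts; 9.22 to 17.8 in the others), while Gabra2 was at 1.29 CPM (3 counts; 16.3 to 20.9). None of these 9 members passed the test between the groups.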

How the results depend on the processing

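The number of members higher in endfeet TRAP was 6, and 4 to 8 under the alternatives other than leaving out a library (8 with DESeq2, 4 without a filter on low counts). Leaving out a library gave 3 to 8 higher and 0 to 2 lower. The 1 member lower became 3 with limma voom and 2 over endfeet libraries 4 to 6. Gria1, Grin2b and Gabrg3 passed in all 17 other fits. Each of these fits used representative transcripts or sums over the transcripts of a gene. Some shorter transcripts did not pass when tested alone. Their log2 fold changes were 0.96 for Grin2b (7484 bases), -0.44 for Gabrg3 (1724 bases), and 1.82 and 1.45 for Gria1 (287 and 531 bases). Of 66 related genes tested in the main fit, 3 were called higher and 11 lower. The numbers were 9 and 17 under DESeq2, and 2 to 6 and 8 to 16 with a library left out. Over all 14427 tested genes, edgeR called 20.7% higher and 13.9% lower, and DESeq2 3715 and 2356 genes. Limma voom moved the median of all tested genes to -0.29 and called 3931 genes higher and 4493 lower, against 2991 and 2006. The median was -0.22 with the replicate block and -0.16 over endfeet libraries 4 to 6.

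Libraries of the same number showed no common deviation (mean correlation 0.0065, against 0.00028 for different numbers). The single pairs had -0.036, 0.017 and 0.038, which are too few to exclude a pairing. With the replicate number as a block, 6 members were higher and 1 lower. Under it Grin3a no longer passed (1.12) and Grik3 did (1.76), and the log2 fold change changed sign for Grik4 (-0.23), Grin2d (0.16), Gabrd (-0.34) and Glrb (-0.048).

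Signs changed only for members that did not pass, apart from short transcripts of Gria3 (322 bases, -0.28) and Gabrg3 (-0.44). With limma voom they changed for Gria2 (-0.0093), Grik4 (-0.038), Grid1 (-0.41), Gabrb2 (-0.13) and Gabrd (-0.12), and over endfeet libraries 4 to 6 for Gria2 (-0.57), Grin2c (0.23), Grid1 (-1.42), Gabrb2 (-0.11), Gabrd (-0.095) and Glrb (-0.023). Gria2 was also below 0 without a filter (-0.067), with at least 10 counts in every library (-0.13; Glrb -0.057) and with summed transcripts (-0.0195). With a library left out, the range was -0.15 to 0.18 for Gria2, -1.01 to 0.088 for Grin2c, -0.47 to 0.997 for Grid1, -0.25 to 0.74 for Gabrb2, -0.37 to 0.71 for Gabrd and -0.16 to 0.23 for Glrb. The cause was not tested.

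Shares within a family moved with the length used. Without division by length, Grin2b held 62.0% (whole astrocyte) and 76.5% (endfeet) of the NMDA mRNA, and in whole astrocyte TRAP Gria1 held 26.4% of the AMPA mRNA and Gabrg1 20.4% of the GABA-A mRNA. With summed transcripts, Grin2b held 8.20% and 20.02%, and Grik2, Gabrg1 and Glrb 36.2%, 14.3% and 95.7% in whole astrocyte TRAP. With the length of the shortest transcript that held 95% of the counts, Gria1 held 22.4% and Grin2b 23.8% there, and Gria2 58.7% (endfeet 37.6%) in place of 36.0% (19.5%). In each of these settings the share of Grin2b was higher in endfeet TRAP.

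In endfeet library 6, 3 counts stood for 1.29 CPM, so that lower levels were not detectable there. The common dispersion of the groups was 0.014 (whole astrocyte) and 0.705 (endfeet). In data simulated with these values for all genes, edgeR called 1.03% of log2 changes of 2. Members such as Gria1 (1.31) and Gria3 (1.08) passed at smaller changes, so the simulation does not give the power for single members. A member that did not pass is not shown to be equal in the groups.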
